A study of Mus musculus with 16 samples.

Results

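The genes described here are 8 Toll-like receptors of the mouse, the co-receptor *Cd14* and the adaptor *Myd88*. They were taken by symbol from the deposited expression table, and all 10 were found among its 18167 genes. The receptors were split by the place where they meet their ligands, with *Tlr1*, *Tlr2*, *Tlr4* and *Tlr6* at the cell surface and *Tlr3*, *Tlr7*, *Tlr9* and *Tlr13* in endosomes. RNA was sequenced from whole spinal cords of 16 mice labelled male that carry a human profilin 1 transgene, a model of amyotrophic lateral sclerosis when the transgene holds the G118V change. Mutant mice (hPFN1 G118V, C57BL/6N mice with the transgene Tg(Prnp-PFN1*G118V)838Kiaei) were studied at 50 days, before symptoms (mutant young, MY, n = 3), and at the end stage of disease, 175 to 245 days of age (mutant old, MO, n = 5). Controls carried the unchanged human protein (hPFN1 WT, C57BL/6N mice with the transgene Tg(Prnp-PFN1)850Kiaei) and were 50 days (wild-type young, WY, n = 3) or 190 to 294 days old (wild-type old, WO, n = 5). All 4 groups thus expressed human profilin 1 from a prion protein promoter, each genotype was a single transgenic line, and no mouse without a transgene was sequenced. Libraries were made in 2 batches, with MO4, MO5, WO4 and WO5 in batch 2 and the other 12 mice in batch 1.

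Toll-like receptors are membrane proteins that bind conserved parts of microbes, and some of them also respond to molecules released from damaged cells. Receptors at the surface recognise lipids and proteins, whereas those in endosomes recognise nucleic acids, and all of them except TLR3 signal through the adaptor MyD88 to NF-κB and interferon regulatory factors. In the central nervous system they are best known on microglia, the resident macrophages, and several are also found on astrocytes and neurons.

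Levels are the authors' log2(1 + FPKM) values after batch adjustment, where FPKM is the number of fragments scaled to transcript length and library size. A log2 fold change is the mean of the second group minus that of the first, so that a positive value in WO vs. MO means a higher level in MO. Because 1 was added to FPKM, such fold changes fall short of the FPKM ratio when FPKM is about 1 or less, as it was for most of the receptors. A gene was counted as up- or down-regulated at a false discovery rate (FDR) of at most 0.05 over all genes and a fold change of 1.5 or more in either direction, which is 0.58 on the log2 scale. The deposited table gives no read counts, so the number of reads behind a single gene's value is unknown.

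One mouse did not match its label. In MO5, *Xist*, the RNA of the inactive X chromosome in females, was 3.21, and no other mouse exceeded 0.37. Its level of *Ddx3y*, a gene of the Y chromosome, was 1.95, whereas the lowest of the 15 remaining mice had 4.06. The Y-linked genes *Uty* (1.05), *Kdm5d* (1.07) and *Eif2s3y* (1.82) were also lowest in MO5. Because *Tlr7* and *Tlr13* lie on the X chromosome, results are given with and without this mouse. The levels were those of nervous tissue. Converted from mean log2 levels over 16 mice, the neuronal gene *Snap25* and the myelin gene *Mbp* were at 1383 and 5796 FPKM. The muscle genes *Ckm* and *Myh4* were at 0.0506 and 0.00740 FPKM, and *Hoxc8*, a gene of spinal cord position, was at 26.3 FPKM. *Mbp* varied widely, from 5.36 (WO4) to 14.22 (WO5) on the log2 scale.

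The Toll-like receptors, *Cd14* and *Myd88* were higher in end-stage mutant mice than in old wild-type or young mutant mice. In WO vs. MO, all 10 genes were higher at the FDR threshold alone, which 15% of all genes were. With the fold change required as well, *Tlr1*, *Tlr2*, *Tlr7*, *Tlr13* and *Cd14* were up-regulated, 5 of 10, against 4.08% of all genes. In MY vs. MO, all 10 were again higher at the FDR threshold alone (13.1% of all genes), and the same 5 genes with *Tlr4* were up-regulated, 6 of 10 (4.11% of all genes). Counted in either direction, 4646 genes met this FDR in MY vs. MO, but 2586 without MY1, 3063 without MY2 and 2673 without MY3. WO vs. MO and MY vs. MO share the 5 MO mice and are not independent of each other. For 9 of 10 genes, every MO mouse was above every one of the other 11 mice, which was so for 7.58% of all genes, and *Tlr3* was the exception. The median log2 fold change of the 10 genes was 0.77 in WO vs. MO and 0.82 in MY vs. MO, beside 0.000350 and 0.00472 over all genes. In a bulk sample, more cells that express these genes and more RNA per cell cannot be told apart.

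**Figure D1:**
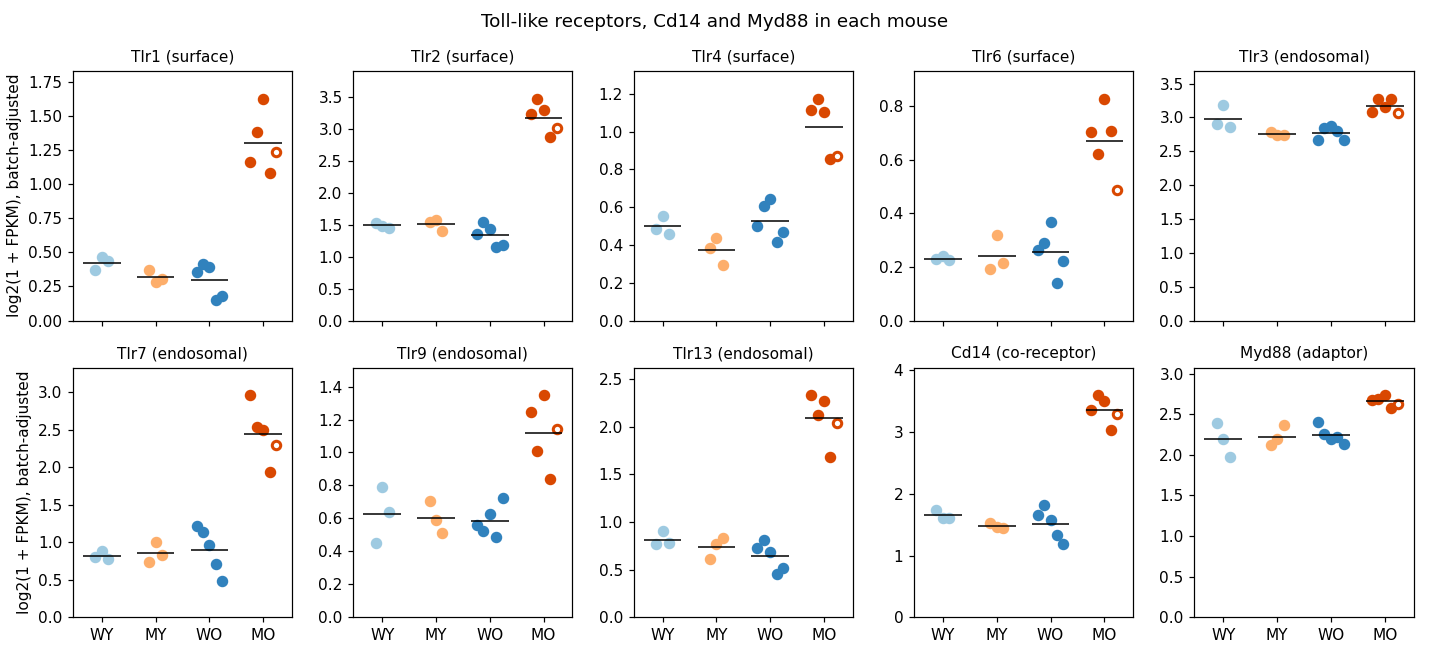
Level of each gene in each of 16 mice, as batch-adjusted log2(1 + FPKM) on the vertical axis, by group (WY, MY, WO, MO). Circles are mice, bars are group means, and the open point is MO5. The 5 MO mice lie above the other 11 in 9 of 10 panels, the exception being *Tlr3*.

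Among the surface receptors, *Tlr2*, which pairs with TLR1 or TLR6 to bind bacterial lipoproteins, had the largest fold change in WO vs. MO. Its level was 3.24, 3.48, 3.29, 2.88 and 3.01 in MO1 to MO5, against 1.36, 1.55, 1.43, 1.16 and 1.18 in WO1 to WO5. It was 1.55, 1.58 and 1.41 in MY1 to MY3 and 1.53, 1.49 and 1.46 in WY1 to WY3. The MO mice stood clear of all others, with a gap of 1.30 between the lowest MO mouse and the highest other mouse, and the remaining 3 groups overlapped. The log2 fold change was 1.85 ± 0.12 (SE, FDR = 1.46e-05) in WO vs. MO and 1.67 ± 0.13 (SE, FDR = 0.000212) in MY vs. MO. Within batches, the difference between MO and WO was 1.89 in batch 1 and 1.78 in batch 2. Converted back from the group means, *Tlr2* was at 1.52 FPKM in WO and 8.06 FPKM in MO, a ratio of 5.30.

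*Tlr1*, the partner of TLR2 for triacylated lipoproteins, was low in the 3 other groups and rose in MO. In MO1 to MO5 it was at 1.16, 1.38, 1.63, 1.09 and 1.24, and in WO1 to WO5 at 0.35, 0.42, 0.39, 0.15 and 0.18. The young mice had 0.37, 0.28 and 0.30 (MY1 to MY3) and 0.37, 0.46 and 0.43 (WY1 to WY3). No MO value fell within the range of another group, and MO3 was the highest mouse. *Tlr1* rose by 1.00 ± 0.10 (SE, FDR = 6.36e-05) in WO vs. MO and by 0.98 ± 0.11 (SE, FDR = 0.000722) in MY vs. MO, with within-batch differences between MO and WO of 1.00 in batch 1 and 1.00 in batch 2. On the FPKM scale its mean went from 0.229 in WO to 1.46 in MO, a ratio of 6.36, which was the highest of the 10 genes although its log2(1 + FPKM) change was under those of *Tlr2*, *Cd14*, *Tlr7* and *Tlr13*.

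*Tlr6*, the partner of TLR2 for diacylated lipoproteins, had the lowest level of all 10 genes in every group. It was at 0.70, 0.62, 0.83, 0.71 and 0.48 in MO1 to MO5 and at 0.26, 0.29, 0.37, 0.14 and 0.22 in WO1 to WO5. The 3 MY mice had 0.19, 0.32 and 0.21 and the 3 WY mice 0.23, 0.24 and 0.22. MO5 was the lowest MO mouse, yet above all 11 others. The log2 fold change, 0.41 ± 0.064 (SE, FDR = 0.000922) in WO vs. MO and 0.43 ± 0.075 (SE, FDR = 0.00446) in MY vs. MO, was under the required fold change, and it was 1.23 and 1.29 when 0.1 was added to FPKM in place of 1. Within batches the difference between MO and WO was 0.41 in batch 1 and 0.41 in batch 2. *Tlr1* (chr5:64924679-64933563, GRCm38) and *Tlr6* (chr5:64952031-64960097) are neighbouring genes of similar sequence, and how reads shared by both were assigned is uncertain.

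*Tlr4*, the receptor for lipopolysaccharide, was at 1.11, 1.18, 1.10, 0.86 and 0.87 in MO1 to MO5, against 0.50, 0.61, 0.65, 0.41 and 0.47 in WO1 to WO5. It was at 0.38, 0.43 and 0.30 in the MY mice and 0.49, 0.55 and 0.46 in the WY mice. The MO mice were above all others, with MO4 and MO5 of batch 2 the lowest among them, and the MY mice were the lowest group. *Tlr4* was up-regulated in MY vs. MO (0.65 ± 0.084 SE, FDR = 0.00116) and passed only the FDR threshold in WO vs. MO (0.50 ± 0.074 SE, FDR = 0.000672). With quantile normalization the MY vs. MO value of *Tlr4* was 0.55, under the required fold change. With 0.1 added to FPKM in place of 1, *Tlr4* passed both thresholds in both comparisons, at 1.07 (FDR = 0.000688) in WO vs. MO and 1.53 (FDR = 0.000839) in MY vs. MO. Within batches the difference between MO and WO was 0.55 in batch 1 and 0.42 in batch 2.

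Among the endosomal receptors, *Tlr7*, which binds single-stranded RNA, showed the widest spread between MO mice. Its levels were 2.96, 2.53, 2.50, 1.94 and 2.29 in MO1 to MO5 and 1.21, 1.14, 0.96, 0.71 and 0.49 in WO1 to WO5. They were 0.73, 1.01 and 0.83 in MY1 to MY3 and 0.80, 0.88 and 0.78 in WY1 to WY3. MO1 was highest and MO4 lowest of the MO mice, and no other mouse reached MO4. *Tlr7* rose by 1.54 ± 0.19 (SE, FDR = 0.000201) in WO vs. MO and by 1.59 ± 0.19 (SE, FDR = 0.00094) in MY vs. MO, and the differences between MO and WO within batches were 1.56 in batch 1 and 1.52 in batch 2. Without MO5 the WO vs. MO value was 1.58 (FDR = 0.000617) and the MY vs. MO value 1.62 (FDR = 0.00235).

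*Tlr13*, a receptor for bacterial ribosomal RNA that mice have and humans lack, was also higher in every MO mouse than in any other mouse. In MO1 to MO5 its level was 2.33, 2.12, 2.27, 1.68 and 2.04, compared with 0.73, 0.81, 0.68, 0.46 and 0.52 in WO1 to WO5. The MY mice had 0.61, 0.77 and 0.83 and the WY mice 0.77, 0.90 and 0.78. The lowest MO mouse, MO4, exceeded the highest other mouse by 0.78. *Tlr13* rose by 1.45 ± 0.12 (SE, FDR = 2.21e-05) in WO vs. MO and by 1.35 ± 0.14 (SE, FDR = 0.000451) in MY vs. MO, and within batches MO exceeded WO by 1.5 in batch 1 and 1.37 in batch 2. Leaving out MO5 gave 1.46 (FDR = 0.000107) and 1.36 (FDR = 0.00148). *Tlr7* (chrX:167304929-167330558) and *Tlr13* (chrX:106143204-106160493) are far apart on the X chromosome.

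*Tlr3*, the receptor for double-stranded RNA, differed from the rest in its level and its pattern. It was the most abundant of the 10 genes in WY, MY and WO, with 6.89, 5.75 and 5.82 FPKM, against 8.0 FPKM in MO. Mouse by mouse, its log2 levels were 3.08, 3.27, 3.16, 3.28 and 3.07 in MO1 to MO5 and 2.67, 2.84, 2.88, 2.80 and 2.67 in WO1 to WO5, with 2.78, 2.74 and 2.74 in MY and 2.91, 3.18 and 2.86 in WY. All MO mice were above all WO and MY mice, but WY2 lay within the MO range. The log2 fold changes of 0.40 ± 0.061 (SE, FDR = 0.000797) in WO vs. MO and 0.42 ± 0.061 (SE, FDR = 0.00196) in MY vs. MO passed the FDR threshold alone, and within batches MO exceeded WO by 0.37 in batch 1 and 0.44 in batch 2.

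*Tlr9*, which binds unmethylated CpG DNA, was at 1.25, 1.01, 1.35, 0.84 and 1.14 in MO1 to MO5 and at 0.56, 0.53, 0.62, 0.49 and 0.72 in WO1 to WO5. The young mice had 0.71, 0.59 and 0.51 (MY1 to MY3) and 0.45, 0.79 and 0.64 (WY1 to WY3). MO4 was only just above WY2, the highest of the other mice, with a gap of 0.050. The log2 fold change was 0.53 ± 0.090 (SE, FDR = 0.00147) in WO vs. MO and 0.51 ± 0.11 (SE, FDR = 0.011) in MY vs. MO, both under the required fold change. *Tlr9* passed it in WO vs. MO without MO4 (0.60) and in the batch 1 mice alone (0.63 in WO vs. MO and 0.60 in MY vs. MO). In MY vs. MO, *Tlr9* also passed with batch as a term or with a replicate block (0.60 in each). Both rest on the batch 1 mice for this fold change, since MO4 and MO5 have no MY mouse of their batch or number. With 0.1 added to FPKM in place of 1, *Tlr9* passed in both comparisons, at 1.08 in WO vs. MO and 1.03 in MY vs. MO. Without MY3 its MY vs. MO value of 0.47 missed the FDR threshold (FDR = 0.0542). In batch 2, MO exceeded WO by 0.38.

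*Cd14*, the co-receptor that hands lipopolysaccharide to TLR4 and also serves TLR2, rose about as much as *Tlr2*. It was at 3.36, 3.60, 3.50, 3.04 and 3.30 in MO1 to MO5, against 1.65, 1.82, 1.58, 1.34 and 1.18 in WO1 to WO5. In MY1 to MY3 it was at 1.53, 1.47 and 1.45, and in WY1 to WY3 at 1.74, 1.61 and 1.62. All MO mice lay at least 1.22 above every other mouse. The log2 fold change was 1.84 ± 0.13 (SE, FDR = 2.16e-05) in WO vs. MO and 1.87 ± 0.11 (SE, FDR = 0.000203) in MY vs. MO, and within batches MO exceeded WO by 1.80 in batch 1 and 1.91 in batch 2. Its mean of 9.26 FPKM in MO, up from 1.86 in WO and 1.80 in MY, was the highest of the 10 genes in that group.

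*Myd88*, the adaptor shared by nearly all Toll-like receptors and by the interleukin-1 receptors, had a smaller difference. Its levels were 2.68, 2.68, 2.73, 2.58 and 2.63 in MO1 to MO5 and 2.41, 2.26, 2.20, 2.22 and 2.13 in WO1 to WO5. They were 2.12, 2.19 and 2.36 in MY and 2.40, 2.20 and 1.98 in WY. The MO mice were tightly grouped and above every other mouse, while the other groups overlapped. The log2 fold change was 0.42 ± 0.053 (SE, FDR = 0.000243) in WO vs. MO and 0.44 ± 0.062 (SE, FDR = 0.00178) in MY vs. MO, under the required fold change, and within batches MO exceeded WO by 0.41 in batch 1 and 0.43 in batch 2. On the FPKM scale this was 3.73 in WO and 5.32 in MO, a ratio of 1.43.

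**Figure D2:**
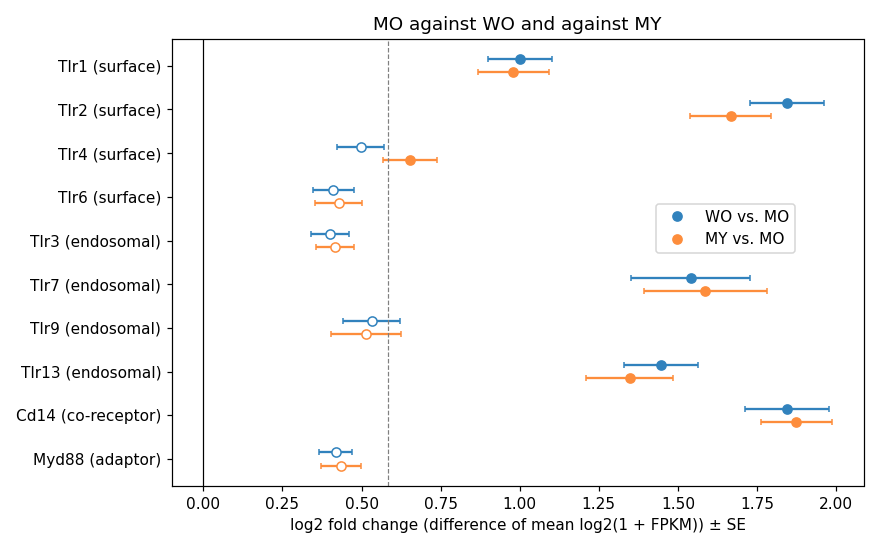
Log2 fold change ± SE of each of the 10 genes in WO vs. MO (blue) and MY vs. MO (orange), as differences of mean log2(1 + FPKM). Filled symbols passed FDR and fold change, open symbols FDR alone, and the dashed line marks the required fold change (0.58). *Tlr2*, *Cd14*, *Tlr7*, *Tlr13* and *Tlr1* lie to its right in both comparisons.

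As classes, surface and endosomal receptors had similar differences on the log2(1 + FPKM) scale. In WO vs. MO, 2 of 4 surface receptors (*Tlr1*, *Tlr2*) and 2 of 4 endosomal receptors (*Tlr7*, *Tlr13*) were up-regulated, against 4.08% of all genes. In MY vs. MO, 3 of 4 surface receptors (with *Tlr4*) and the same 2 of 4 endosomal receptors were, against 4.11% of all genes. The mean over the 4 surface receptors was 1.55, 1.66, 1.71, 1.38 and 1.40 in MO1 to MO5 and 0.62, 0.72, 0.71, 0.46 and 0.51 in WO1 to WO5. The mean over the 4 endosomal receptors was 2.40, 2.23, 2.32, 1.94 and 2.13 in MO1 to MO5 and 1.29, 1.33, 1.29, 1.11 and 1.10 in WO1 to WO5. Both class means were higher in every MO mouse than in every WO mouse. The difference between group means was 0.94 for the surface class and 0.98 for the endosomal class in WO vs. MO, and 0.93 and 0.97 in MY vs. MO. Surface minus endosomal was -0.62 ± 0.040 (SD, n = 5) in WO, -0.66 ± 0.13 (SD, n = 5) in MO, -0.63 ± 0.044 (SD, n = 3) in MY and -0.65 ± 0.090 (SD, n = 3) in WY, so that the groups overlapped.

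That balance depended on the scale. In FPKM, the summed level of the surface receptors was 11.5, 13.5, 12.8, 8.91 and 9.65 in MO1 to MO5 and 2.46, 3.01, 2.86, 1.77 and 1.95 in WO1 to WO5. The summed level of the endosomal receptors was 19.6, 17.8, 17.9, 14.5 and 15.6 in MO1 to MO5 and 7.80, 8.56, 8.45, 7.36 and 6.85 in WO1 to WO5. The surface receptors thus held between 37.0% and 43.2% of the FPKM of the 8 receptors in MO, and between 19.4% and 26.0% in WO, 22.9% and 26.2% in MY and 21.2% and 24.8% in WY. *Tlr2* supplied most of the surface sum in WO and MO (1.52 and 8.06 FPKM from the group means). *Tlr3* supplied most of the endosomal sum in the 3 other groups, and it differed less between WO and MO (5.82 and 8.0 FPKM). The endosomal receptors *Tlr7*, *Tlr13* and *Tlr9* went from 0.870, 0.557 and 0.499 FPKM in WO to 4.44, 3.25 and 1.17 FPKM in MO. Shares without *Tlr2* and *Tlr3* were not computed. When 0.1 was added to FPKM in place of 1, the change of surface minus endosomal went from -0.042 to 0.19 in WO vs. MO. In MY vs. MO it went from -0.035 to 0.27, also a turn toward the surface class. The classes were mixed in that setting, with *Tlr3* the lowest of the 8 receptors in WO vs. MO (0.45). *Tlr9*, *Tlr7* and *Tlr13* were at 1.08, 2.27 and 2.36, and the surface receptors ran from 1.07 (*Tlr4*) to 2.34 (*Tlr2*). In MY vs. MO *Tlr3* was again lowest (0.47). The class change without *Tlr3* was not computed. No test was made of these class values.

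The order of the 10 levels also differed between MO and the other groups. In WO, *Tlr3* and *Myd88* led, followed by *Cd14*, *Tlr2*, *Tlr7*, *Tlr13*, *Tlr9*, *Tlr4*, *Tlr1* and *Tlr6*, and from *Cd14* downward each gene's range over mice overlapped that of the next. In MO, the order was *Cd14*, *Tlr2*, *Tlr3*, *Myd88*, *Tlr7*, *Tlr13*, *Tlr1*, *Tlr9*, *Tlr4* and *Tlr6*. There, *Cd14*, *Tlr2* and *Tlr3* overlapped (9.26, 8.06 and 8.0 FPKM), the ranges of *Tlr3* and *Myd88* were separate, *Tlr7* overlapped with *Myd88* above it and *Tlr13* under it, which were separate from each other (5.32, 4.44 and 3.25 FPKM), and *Tlr6* was below all others.

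None of the 10 genes passed both thresholds in limma with age in wild-type mice or with genotype at 50 days. In WY vs. WO, 0 of 10 were up- or down-regulated, against 0.253% of all genes, and 1 of 10 had an unadjusted p under 0.05, as did 2447 of all 18167 genes. The share over all genes rests on 46 genes, a number that was 26 without WO2, 27 without WO3, 23 without WY1, 30 without WY2 and 7 without WY3. The gene with the low unadjusted p was *Tlr3*, with a log2 fold change of -0.21 ± 0.085 (SE, FDR = 0.324). The other values in WY vs. WO ran from -0.18 (*Tlr13*) to 0.081 (*Tlr7*). In WY vs. MY, 0 of 10 passed, against 0.0055% of all genes, and 3 of 10 had an unadjusted p under 0.05 (1301 of all 18167 genes), each with a lower mean in MY. These were *Cd14* (-0.17 ± 0.053 SE, FDR = 0.641), *Tlr4* (-0.13 ± 0.053 SE, FDR = 0.695) and *Tlr3* (-0.23 ± 0.088 SE, FDR = 0.683). The 1301 genes numbered 769 without MY1, 811 without MY3 and 3001 without WY2. The share of all genes passing in WY vs. MY rests on 1 gene, a number that was 5 without WY1.

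In the test of (MO − MY) − (WO − WY) on all 16 mice, which compares the change with age between genotypes, 7 of 10 passed both thresholds in the positive direction, against 4.65% of all genes. The difference was largest for *Cd14* (2.02 ± 0.19 SE, FDR = 2.91e-05) and *Tlr2* (1.82 ± 0.17 SE, FDR = 2.75e-05). *Tlr13* (1.52 ± 0.17 SE, FDR = 6.51e-05) and *Tlr7* (1.51 ± 0.27 SE, FDR = 0.00147) came next, with *Tlr1* at 1.10 ± 0.14 (SE, FDR = 0.000143). *Tlr3* (0.63 ± 0.11 SE, FDR = 0.00117) and *Tlr4* (0.63 ± 0.11 SE, FDR = 0.00116) passed closer to the required fold change, and without WY2 *Tlr3* (0.53, FDR = 0.002) did not pass the fold change, nor did *Tlr4* with quantile normalization (0.53, FDR = 0.00318). For *Tlr9*, *Tlr6* and *Myd88*, the difference was 0.56, 0.40 and 0.38, under the required fold change, and *Tlr9* passed without MO4 (0.63), MY1 (0.61), WO5 (0.59) or WY1 (0.64) and in the batch 1 mice alone (0.66, FDR = 0.0129). With 0.1 added to FPKM in place of 1, *Tlr9* (1.12, FDR = 0.0215) and *Tlr6* (1.21, FDR = 0.0101) passed as well. At the FDR threshold alone all 10 passed (10.5% of all genes), which for *Myd88* (FDR = 0.0379) did not hold in 14 of 23 alternative settings. Over these 23 settings its FDR ranged from 0.00786 to 0.119. The FDR threshold was missed on leaving out MO2, MO3, MY1, MY2, WO2, WO3, WO4, WO5, WY1 or WY2, and *Tlr9* missed the FDR threshold without MY3 (FDR = 0.0515).

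Without MO5, the same 5 genes were up-regulated in WO vs. MO, from 1.02 (*Tlr1*) to 1.89 (*Tlr2*), and the same 6 in MY vs. MO, from 0.69 (*Tlr4*) to 1.89 (*Cd14*). The same 7 passed in the test of the difference between genotypes. The batch 2 mice tended to be low within their groups after the authors' adjustment. WO4 and WO5 were the lowest WO mice for 7 of 10 genes and MO4 and MO5 the lowest MO mice for 6 of 10. WO4 and WO5 were also the oldest mice, both 294 days, so that batch and age cannot be told apart within WO.

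Markers of microglia and macrophages were higher in MO as well. Of 9 such genes, 5 were up-regulated in WO vs. MO and 6 in MY vs. MO, against 4.08% and 4.11% of all genes. Their summed level was 162, 201, 209, 166 and 168 FPKM in MO1 to MO5 and 93.2, 96.9, 99.4, 87.2 and 81.5 FPKM in WO1 to WO5. It was 93.5, 99.3 and 95.0 FPKM in MY1 to MY3 and 90.4, 95.0 and 89.7 FPKM in WY1 to WY3. No MO mouse overlapped the other groups, and *Csf1r*, the receptor for colony-stimulating factor 1, was the most abundant marker. The log2 fold change in WO vs. MO was 1.28 ± 0.086 (SE, FDR = 1.50e-05) for *Csf1r*, 1.75 ± 0.23 (SE, FDR = 0.000305) for *Aif1* and 1.68 ± 0.14 (SE, FDR = 2.55e-05) for *Ptprc*. Genes typical of resting microglia differed among themselves. *Cx3cr1* was up-regulated in WO vs. MO (1.14 ± 0.12 SE, FDR = 9.98e-05), and *Tmem119* (0.49, FDR = 0.00298) and *Siglech* (0.26, FDR = 0.0479) passed the FDR threshold alone. *P2ry12* (0.10, FDR = 0.623) and *Sall1* (-0.0061, FDR = 0.964) passed neither threshold. In MY vs. MO, *Tmem119* was up-regulated (0.60 ± 0.10 SE, FDR = 0.00393). The part of these cells in the results for the 10 genes was not tested.

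Markers of other immune cells were at low levels, except for those of neutrophils in some mice. Counts of markers can be read beside those over all 18167 genes, of which 6986 had an unadjusted p under 0.05 in WO vs. MO and 6673 in MY vs. MO. At the FDR threshold alone, 2730 were higher and 2345 lower in WO vs. MO, and 2377 higher and 2269 lower in MY vs. MO. The 5 markers of border macrophages summed to 2.28 to 3.03 FPKM in MO and 1.17 to 2.22 FPKM in WO (most abundant, *Pf4*). In limma 0 of 5 passed both thresholds in WO vs. MO (2 of 5 at an unadjusted p under 0.05), and *Mrc1* (0.22, FDR = 0.00343) and *Lyve1* (0.24, FDR = 0.0109) were higher at the FDR threshold alone. The 5 T cell markers summed to 0.266 to 0.627 FPKM in MO and 0.0430 to 0.192 FPKM in WO (most abundant, *Cd3g* in MO and *Cd3d* in WO). Here too 0 of 5 passed both thresholds in limma (2 of 5 at an unadjusted p under 0.05), with *Cd3g* (0.21, FDR = 0.0127) and *Cd8a* (0.092, FDR = 0.0412) higher at the FDR threshold alone. The T cell genes *Cd4* and *Cd3e* had mean levels of 0.0413 and 0.0513 FPKM in MO. Of 4 B cell markers, *Cd79a* and *Cd79b* were measured, with a summed level of 0.440 to 0.883 FPKM in MO and 0.101 to 0.554 FPKM in WO. Their values lay in opposite directions in WO vs. MO, and 0 of 2 passed both thresholds in limma (2 of 2 at an unadjusted p under 0.05). *Cd79b* was higher at the FDR threshold alone (0.45 ± 0.060 SE, FDR = 0.000373), with every MO mouse above every other mouse by at least 0.00629, and *Cd79a* was lower (-0.17 ± 0.073 SE, FDR = 0.117). The 7 markers of monocytes and neutrophils summed to 1.10 to 8.71 FPKM in MO and 3.56 to 37.2 FPKM in WO (most abundant, *S100a8*). The value of 37.2 FPKM was that of WO2, and the next highest WO mouse, WO1, had 8.59 FPKM. In limma 0 of 7 passed in WO vs. MO, also at the FDR threshold alone (2 of 7 at an unadjusted p under 0.05), and the monocyte gene *Ccr2* had a mean of 0.0738 FPKM in MO. The part of these cells in the results was not tested.

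Of 5 astrocyte markers, 3 were up-regulated in WO vs. MO, where 4.08% of all genes were, and 2 in MY vs. MO, where 4.11% were. *Gfap*, the most abundant of them, rose by 1.60 ± 0.10 (SE, FDR = 1.46e-05) in WO vs. MO, and the 5 markers summed to 2348 to 3232 FPKM in MO and 934 to 1162 FPKM in WO. *Aqp4*, the gene of a water channel, was down-regulated in WY vs. WO (-0.65 ± 0.10 SE, FDR = 0.0281). All 6 neuronal and motor neuron markers were lower in MO at the FDR threshold, in WO vs. MO and in MY vs. MO, as were 2345 and 2269 of all 18167 genes, with list medians of -0.49 and -0.31. *Chat*, which encodes the enzyme that makes acetylcholine, also passed the fold change in WO vs. MO (-0.67 ± 0.059 SE, FDR = 3.13e-05). In the test of the difference between genotypes, *Chat* (-0.85), *Slc5a7* (-0.75) and *Slc18a3* (-0.64) passed both thresholds in the negative direction. Of all 18167 genes, 175 did so, a number that was 78 without WY1 and 366 without WY2. The mean log2 level of the 6 markers was 4.70 in WY1, against 5.03 in WY2 and 5.08 in WY3. The 6 markers summed to 1166 to 1371 FPKM in MO and 1599 to 1809 FPKM in WO (most abundant, *Snap25*).

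The 3 oligodendrocyte markers summed to 5010 to 18583 FPKM in MO and 678 to 19695 FPKM in WO (most abundant, *Mbp*). On the log2 scale *Mbp* was at 12.61, 12.49, 12.42, 5.36 and 14.22 in WO1 to WO5 and at 12.16, 12.16, 12.24, 14.11 and 14.14 in MO1 to MO5. WO4 was far below the other 15 mice, and the other batch 2 mice, WO5, MO4 and MO5, were the highest of the 16. Within batches MO minus WO was -0.32 in batch 1 and 4.34 in batch 2. In WO vs. MO, 0 of 3 passed both thresholds in limma (1 of 3 at an unadjusted p under 0.05), and *Mobp* was lower at the FDR threshold alone (-0.30 ± 0.083 SE, FDR = 0.0202). *Mog*, a myelin surface protein gene, was down-regulated in MY vs. MO (-0.93 ± 0.20 SE, FDR = 0.0118) and in WY vs. WO (-0.77 ± 0.10 SE, FDR = 0.0178), and *Mobp* was lower in MY vs. MO at the FDR threshold alone (-0.51 ± 0.077 SE, FDR = 0.00242). Of 4 endothelial markers, 0 passed both thresholds in limma in WO vs. MO (4 of 4 at an unadjusted p under 0.05), and 3 were lower in MO at the FDR threshold alone, beside 6986 and 2345 of all 18167 genes. The 3 were *Pecam1* (-0.50 ± 0.074 SE, FDR = 0.000615), *Cdh5* (-0.57 ± 0.093 SE, FDR = 0.00122) and *Flt1* (-0.47 ± 0.12 SE, FDR = 0.0144), whereas in MY vs. MO 0 of 4 passed in limma at the FDR threshold (1 of 4 at an unadjusted p under 0.05). None of 3 Schwann cell, 3 skeletal muscle or 4 spinal cord position genes passed both thresholds in limma in WO vs. MO (0, 2 and 2 at an unadjusted p under 0.05). At the FDR threshold alone, 1 muscle gene was lower, and 1 position gene was higher and 1 lower. The most abundant genes of these 4 lists were *Cldn5*, *Pmp2* (*Prx* in MO), *Acta1* and *Hoxc8*. Summed levels of endothelial, Schwann cell, muscle and position genes were 23.2 to 32.1, 0.174 to 0.624, 0.373 to 0.580 and 45.8 to 57.1 FPKM in MO and 28.7 to 45.8, 0.168 to 0.491, 0.473 to 0.863 and 54.6 to 59.8 FPKM in WO. The part of all these cells was not tested either.

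The other genes of Toll-like receptor signalling were examined as 8 lists with 87 genes, of which 82 were in the table. Of these, 25 were up-regulated and 1 down-regulated in WO vs. MO, and 24 and 1 in MY vs. MO. Of all genes, 4.08% were up-regulated in WO vs. MO and 4.11% in MY vs. MO, beside which the counts of each list can be read. Down-regulated were 94 and 143 of all 18167 genes. The median log2 fold change of the 82 genes was 0.26 in WO vs. MO and 0.28 in MY vs. MO. In WY vs. WO and WY vs. MY, 0 of 82 passed in limma (14 and 5 at an unadjusted p under 0.05, beside 2447 and 1301 of all 18167 genes). At the FDR threshold alone *Cxcl10* was lower in WO than in WY (-0.46 ± 0.068 SE, FDR = 0.0255). This gene was named after its value was seen.

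**Figure D3:**
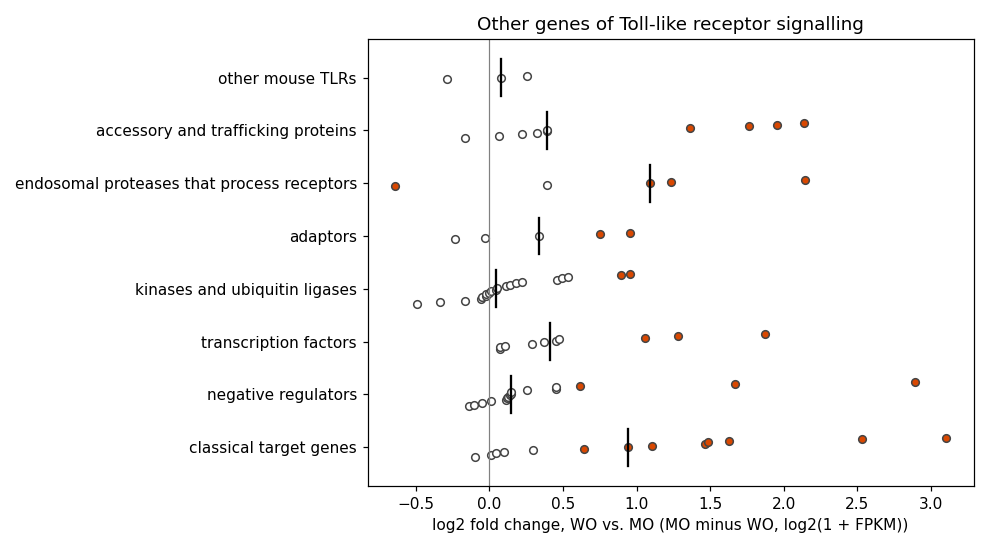
Log2 fold change in WO vs. MO (MO minus WO, on log2(1 + FPKM)) of the 82 measured genes of 8 lists, 1 point per gene. Filled points passed FDR and fold change and bars are list medians. Filled points to the right of 0 are in 7 of the 8 lists, with none among the other Toll-like receptors.

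Of the other Toll-like receptors, *Tlr5*, the flagellin receptor, was lower in MO. It was at 0.31, 0.20, 0.47, 0.39 and 0.51 in MO1 to MO5 and at 0.69, 0.69, 0.67, 0.63 and 0.65 in WO1 to WO5, all MO mice lying below all WO mice. Its log2 fold change in WO vs. MO was -0.29 ± 0.057 (SE, FDR = 0.00334), under the required fold change, and in MY vs. MO it was -0.23 ± 0.074 (SE, FDR = 0.0568). *Tlr8*, next to *Tlr7* on the X chromosome, was at 0.40, 0.20, 0.45, 0.10 and 0.26 in MO1 to MO5 and at no more than 0.048 in any WO mouse, with a log2 fold change of 0.26 ± 0.063 (SE, FDR = 0.0116). *Tlr12* was at 0.220 FPKM in WO and 0.291 FPKM in MO, and its log2 fold change was 0.082 ± 0.043 (SE, FDR = 0.194). In MY vs. MO, *Tlr12* (0.19 ± 0.045 SE, FDR = 0.0146) and *Tlr8* (0.26 ± 0.079 SE, FDR = 0.0411) were higher at the FDR threshold alone. None of these 3 passed both thresholds in limma in WO vs. MO or MY vs. MO (2 and 3 at an unadjusted p under 0.05), and all were named after their values were seen. *Tlr11* was not analysed here.

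Accessory and trafficking proteins bring the receptors to their ligands. In WO vs. MO, 4 of 10 were up-regulated, and the list median was 0.39. *Unc93b1*, the chaperone that carries endosomal receptors out of the endoplasmic reticulum, was at 4.27, 4.61, 4.84, 4.25 and 4.47 in MO1 to MO5 and 3.23, 3.19, 3.16, 3.02 and 3.03 in WO1 to WO5. These ranges were separate, and *Unc93b1* rose by 1.36 ± 0.11 (SE, FDR = 2.16e-05). *Slc15a3*, a peptide and histidine transporter of endolysosomes, rose by 2.14 ± 0.17 (SE, FDR = 2.16e-05). *Cd180*, a receptor-like protein of the surface, and *Ly86*, which encodes its partner MD-1, rose by 1.77 ± 0.17 (SE, FDR = 5.30e-05) and 1.95 ± 0.19 (SE, FDR = 4.75e-05). The same 4 genes were up-regulated in MY vs. MO, from 1.25 (*Unc93b1*) to 1.91 (*Slc15a3*), and all 4 passed in the test of the difference between genotypes.

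Endosomal proteases cut TLR7 and TLR9 into their active forms. Of 5 such proteases, 3 rose and 1 fell in WO vs. MO, with a list median of 1.09. *Ctss* (cathepsin S) was at 8.58, 8.89, 8.97, 8.08 and 8.10 in MO1 to MO5 and 6.47, 6.70, 6.77, 5.92 and 6.04 in WO1 to WO5 and rose by 2.14 ± 0.22 (SE, FDR = 7.98e-05). *Ctsl* and *Ctsb* rose by 1.24 ± 0.10 (SE, FDR = 2.16e-05) and 1.09 ± 0.087 (SE, FDR = 2.16e-05). The protease that fell, named after its values were seen, was *Ctsk* (-0.64 ± 0.18 SE, FDR = 0.0224), and *Lgmn*, also chosen then, passed the FDR threshold alone (0.39 ± 0.054 SE, FDR = 0.000404). In MY vs. MO, the same 3 were up-regulated and *Ctsk* was down-regulated (-0.87 ± 0.23 SE, FDR = 0.0244).

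Among 5 adaptors other than *Myd88*, 2 were up-regulated in WO vs. MO and the median was 0.34. *Ticam2*, which links TLR4 to the adaptor TRIF, was at 1.10, 1.09, 1.12, 0.77 and 0.99 in MO1 to MO5 and 0.34, 0.34, 0.30, 0.12 and 0.21 in WO1 to WO5. The groups did not overlap, and *Ticam2* rose by 0.75 ± 0.073 (SE, FDR = 4.98e-05) in WO vs. MO and 0.72 ± 0.078 (SE, FDR = 0.000587) in MY vs. MO. *Pik3ap1*, which couples receptors to phosphoinositide 3-kinase, rose by 0.96 ± 0.084 (SE, FDR = 3.06e-05) and 0.88 ± 0.094 (SE, FDR = 0.000543). *Ticam1*, the gene of TRIF itself and the adaptor of TLR3, was higher at the FDR threshold alone in WO vs. MO (0.34 ± 0.062 SE, FDR = 0.00243), and *Tirap*, which bridges TLR2 and TLR4 to MyD88, did not pass (-0.030 ± 0.044 SE, FDR = 0.681). *Sarm1*, an adaptor that can inhibit TRIF signalling, was lower at the FDR threshold alone in WO vs. MO (-0.24 ± 0.038 SE, FDR = 0.00115) and MY vs. MO (-0.20 ± 0.040 SE, FDR = 0.00748). *Ticam1*, *Tirap* and *Sarm1* were named after their values were seen.

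The 20 kinases and ubiquitin ligases had the lowest median of the 8 lists in WO vs. MO, with 2 up-regulated and a median of 0.047. The 2 genes were the tyrosine kinases *Btk* (0.89 ± 0.093 SE, FDR = 7.67e-05) and *Syk* (0.95 ± 0.094 SE, FDR = 5.57e-05), which were also up-regulated in MY vs. MO (0.93 and 0.80). *Peli3*, a ubiquitin ligase that acts on IRAK kinases, passed in the negative direction in the test of the difference between genotypes, at -0.68 ± 0.15 (SE, FDR = 0.00651). It was at 3.55, 3.26, 3.53, 3.34 and 3.50 in MO1 to MO5 and 3.91, 3.88, 3.94, 3.92 and 3.99 in WO1 to WO5, with all MO mice below all WO mice, and its WO vs. MO value of -0.49 ± 0.058 (SE, FDR = 0.000155) was under the required fold change.

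Of 10 transcription factors, 3 were up-regulated in WO vs. MO, all of them interferon regulatory factors, and the list median was 0.41. *Irf8* was at 3.01, 3.52, 3.57, 3.12 and 3.08 in MO1 to MO5 and 1.48, 1.66, 1.46, 1.08 and 1.27 in WO1 to WO5, without overlap, and rose by 1.87 ± 0.14 (SE, FDR = 2.16e-05). *Irf5* and *Irf7*, which act downstream of MyD88, rose by 1.28 ± 0.10 (SE, FDR = 2.16e-05) and 1.06 ± 0.12 (SE, FDR = 0.000159). In MY vs. MO the values were 1.65 for *Irf8*, 1.27 for *Irf5* and 1.25 for *Irf7*, all up-regulated.

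Of 16 negative regulators, 3 were up-regulated in WO vs. MO and in MY vs. MO, and the WO vs. MO median was 0.14. *Atf3*, a stress-induced repressor, was at 3.76, 3.94, 3.74, 2.89 and 3.30 in MO1 to MO5 and 0.74, 0.79, 0.90, 0.40 and 0.37 in WO1 to WO5. Every MO mouse exceeded every WO mouse, and *Atf3* rose by 2.89 ± 0.19 (SE, FDR = 1.50e-05). *Socs3*, an inhibitor of cytokine signalling, rose by 1.67 ± 0.13 (SE, FDR = 2.21e-05), and *Tnfaip3*, which encodes the deubiquitinase A20, by 0.61 ± 0.12 (SE, FDR = 0.00293).

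Classical target genes of the pathway, 13 of 17 of which were in the table, had a median of 0.94 in WO vs. MO, where 8 were up-regulated, and 0.81 in MY vs. MO, where 7 were. The chemokine *Ccl3* was at 2.81, 4.09, 4.22, 3.38 and 3.29 in MO1 to MO5 and 0.76, 0.67, 0.59, 0.048 and 0.20 in WO1 to WO5 and rose by 3.10 ± 0.26 (SE, FDR = 2.54e-05). Its groups were far apart, although MO1 was lower than the other MO mice. *Ccl4* rose by 2.53 ± 0.26 (SE, FDR = 7.90e-05) and *Cxcl10* by 1.63 ± 0.16 (SE, FDR = 6.49e-05). *Icam1*, an adhesion molecule, *Ccl2*, *Ccl5* and *Il1a* rose by 1.48, 1.46, 1.10 and 0.94, with FDR between 3.81e-05 and 0.000655. *Il1b*, named after its values were seen, was up-regulated in WO vs. MO only (0.64 ± 0.11 SE, FDR = 0.00121), and in MY vs. MO its value was 0.52 ± 0.13 (SE, FDR = 0.0222). *Il10*, *Il12b*, *Cxcl2* and *Ifnb1* were not analysed here.

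Genes with the most similar profiles were sought for the 5 genes whose levels spanned at least 1 log2 unit over the 16 mice, by the root mean square difference between centred log2 values. For *Tlr2* these were *Cd14* (0.11), *Plek* (0.11) and *Adgre1* (0.12), and for *Cd14* they were *Tlr2* (0.11), *Grn* (0.11) and *Tmem176a* (0.13), so that *Tlr2* and *Cd14* were each other's nearest gene among the 18167. The nearest genes of *Tlr1* were *Axl* (0.050), *Il21r* (0.063) and *Btk* (0.063). For *Tlr13* they were *Fyb* (0.069), *AI607873* (0.081) and *Csf2rb* (0.082), and for *Tlr7*, whose MO mice varied most, *Cyp4f18* (0.12), *Rhoj* (0.13) and *Postn* (0.14). *Axl* encodes a receptor tyrosine kinase, *Adgre1* the macrophage protein F4/80, and *Grn* progranulin. This is a description of likeness over 16 mice, with no test.

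Because the levels of these genes were higher together in MO, their promoters (RefSeq, GRCm38.p6, from 250 bases before to 50 after the start) were searched on both strands for GAGGAAG, the core bound by the myeloid factor PU.1, and GAAANNGAA, a core of the interferon-stimulated response element (ISRE). A promoter was found for 7 of 10 genes, with *Tlr4*, *Tlr7* and *Cd14* not matched. GAGGAAG was present for 3 of 7 genes (*Tlr1*, *Tlr9*, *Tlr13*), and for 15.4% of the 27025 genes with a promoter in the RefSeq table (13.6% of its 32851 promoters). GAAANNGAA was present for 2 of 7 (*Tlr6*, *Myd88*), and for 9.76% of these genes (8.56% of promoters). *Tlr1* and *Tlr6* each had a second promoter with neither motif, and *Tlr2* and *Tlr3* had neither. The stretches around a motif upstream of the RefSeq start are shown for 4 of these genes, on the strand of the gene, with the motif in capitals. That of *Myd88* lies inside the gene as GENCODE places it (chr9:119335934-119341411), so the 2 sources differ on its start. A match is a description of the sequence and was not tied to binding.
*Tlr1* (chr5:64933565-64933591, minus strand): ttaaatgttgGAGGAAGtaggagcttg
*Tlr13* (chrX:106143182-106143208, plus strand): aaaaagagaaGAGGAAGgaaatgtctc
*Tlr9* (chr9:106222476-106222502, plus strand): agagtggaaaGAGGAAGgggttgaggg
*Myd88* (chr9:119340040-119340068, minus strand): gagcttctcgGAAAGCGAAagaaggaggg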

How the data were processed

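RNA of whole spinal cord from 16 mice was sequenced, and the deposited values are log2 values, made by the authors as log2(1 + FPKM) per gene. Per the paper and the submitters' processing notes, reads were cleaned with Trimmomatic and aligned to mm10 with TopHat, and FPKM came from Cufflinks. The authors removed genes that were at 0 in 8 or more mice, 1 was added, and 2 library batches were adjusted with parametric ComBat. Whether group was a covariate of ComBat was not given, and batch 2 held MO and WO mice only, so that MY vs. MO, WY vs. WO and the interaction compare groups from both batches with groups from batch 1 alone, and their values could depend on it. Versions and annotation were not given in the sources used here. The deposited table holds no read counts. Each comparison was fitted on its own 2 groups over all 18167 genes with limma 3.58.1 in R 4.3.3 (lmFit and eBayes, two-sided), and the interaction on all 16 mice. Genes were counted at FDR ≤ 0.05 with a fold change of 1.5 or more. Python 3.11.15, NumPy 2.4.6, pandas 2.3.3 and matplotlib 3.10.9 made summaries and figures. Positions are from GENCODE M21 (GRCm38), promoters from RefSeq (GRCm38.p6). All 10 genes were named, and from each list those that passed in WO vs. MO or MY vs. MO (the 3 largest in WO vs. MO where more passed) or in another comparison, with the 3 nearest profiles. Alternatives were batch 1 mice only, batch as a term, all 4 groups in 1 fit, quantile normalization, a minimum mean of 1, a pseudocount of 0.1, an intensity trend in the prior, FDR alone, a replicate block and leaving out each mouse. The procedure was tested on simulated data of independent normal values without batches. Changes of 1.5 on the log2 scale were added to 200 genes with a mean of at least 1, of which 196 to 200 were recovered. Smaller changes, and changes in genes of a lower mean such as *Tlr1*, *Tlr4*, *Tlr6* and *Tlr9*, were not simulated. Of the planned cell type markers, 2 were left out of the lists. The genes and lists were chosen with earlier results of these data known.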

Additional observations from a re-analysis of the deposited data

Results flagged for a closer look

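How far the change with age differed between mutant and wild-type mice was tested by the interaction in limma over all genes, and it passed FDR and fold change for 7 of 10 genes, against 4.65% of all genes passing upward. On the log2 scale it was 2.02 for *Cd14*, 1.82 for *Tlr2*, 1.52 for *Tlr13*, 1.51 for *Tlr7*, 1.10 for *Tlr1*, 0.63 for *Tlr3* and 0.63 for *Tlr4*. *Tlr3* did not pass without WY2, nor did *Tlr4* with quantile normalization. In none of the 20 groups of 5 mice tested (10 genes in MO and in WO) did 1 mouse lie far from the other 4 by Dixon's test. With 5 mice this test finds only a large gap, and it can miss 2 low mice that lie together. Both batch 2 mice were the lowest of their group for 7 of 10 genes in WO and 6 of 10 in MO.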

How the results depend on the processing

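No log2 fold change of the 10 genes in WO vs. MO or MY vs. MO changed sign under any alternative. With no minimum fold change, 10 of 10 genes passed in WO vs. MO and 10 of 10 in MY vs. MO, and of the 82 pathway genes 50, 54 and 1 in WO vs. MO, MY vs. MO and WY vs. WO, beside 5075, 4646 and 204 of all 18167 genes. With 1 mouse left out, the 4646 genes fell to as few as 2586 (without MY1) and the 204 to as few as 9 (without WY3). With a pseudocount of 0.1, 8 of 10 passed in WO vs. MO, 8 in MY vs. MO and 9 in the interaction, beside 1272, 1233 and 1233 of all 18167 genes passing upward. In that setting 1 pathway gene passed in WY vs. WO, and surface minus endosomal was 0.19 in WO vs. MO, 0.27 in MY vs. MO and -0.067 in WY vs. MY. A pseudocount of 0.1 counts low levels more heavily, and no other cause was tested. With only genes of a mean of at least 1, *Tlr1*, *Tlr4*, *Tlr6* and *Tlr9* were removed and 4 passed in WO vs. MO. With quantile normalization, the genes passing in the interaction were 715 higher and 277 lower, beside 845 and 175. The 175 lower genes numbered 78 without WY1 and 366 without WY2.

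With 1 mouse left out, 5 to 6 of 10 genes passed in WO vs. MO, 6 in MY vs. MO, 6 to 8 in the interaction, and 0 in WY vs. WO and WY vs. MY. Of all 18167 genes, 702 to 795 then passed upward in WO vs. MO, 689 to 811 in MY vs. MO and 730 to 926 in the interaction. Pathway genes numbered 24 to 27 in WO vs. MO, 23 to 28 in MY vs. MO and 0 in WY vs. WO and WY vs. MY. Surface minus endosomal ranged over -0.069 to 0.0045 in WO vs. MO, -0.061 to 0.012 in MY vs. MO, -0.020 to 0.066 in WY vs. WO and -0.027 to 0.059 in WY vs. MY.

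With the replicate number as a replicate block, 5 of 10 genes passed in WO vs. MO and 7 in MY vs. MO, the added gene being *Tlr9*, beside 742 and 850 of all 18167 genes passing upward (742 and 747 without the block). In MY vs. MO the block also takes MO4 and MO5 out of the fold change, as no MY mouse has their number. The batch 1 mice alone gave 841 genes passing upward, *Tlr9* among them, so these gains cannot be put down to the block alone. The replicate numbers name separate mice, and the labels give no pairing of samples. Still, 6 of 6 mice in MY vs. MO and 4 of 6 in WY vs. WO correlated best with the mouse of their own number. In WY vs. MY 0 of 6 did, and in WO vs. MO 1 of 10. What same-numbered mice may have shared was not tested. The correlation between mice of the same number, over centred genes, ran from -0.21 to 0.091 in WO vs. MO, from 0.085 to 0.18 in MY vs. MO, from -0.13 to 0.38 in WY vs. WO and from -0.20 to -0.019 in WY vs. MY.

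The deposited table holds no read counts, so what depth limits for single genes is unknown.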
